A study of Mus musculus with 5 samples.

Results

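The neuronal microtubule-associated proteins and stathmins were followed as mRNAs through an immunoprecipitation of eIF4E, the protein that binds the 5′ cap of mRNAs. They were chosen by gene name and comprised Stmn1, Stmn2, Stmn3, Stmn4, Map1b, Map2, Mapt, Dcx and Dclk1, 9 of the 49875 gene IDs in the deposited table. All 9 were among the 12769 genes tested, which reached an abundance of 1 in 2 or more libraries.

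Every library came from wild-type mouse neocortex at E13.5, in mid-gestation, which the labels also give as forebrain. The cortices were dissociated, lysed with a mild detergent and spun slowly to leave a cytoplasmic fraction, so RNA from all cell types of the tissue was pooled, and the number of cells of a type and the RNA per cell cannot be told apart in a level. There were 2 libraries of RNA precipitated with the eIF4E antibody, 2 libraries of Input, the cytoplasm before precipitation, and 1 library of RNA precipitated with rabbit control immunoglobulin G (IgG). The labels call the eIF4E and Input libraries biological replicates and give no animals or pools, so the p-values cover library-to-library spread, which may be technical.

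Microtubules are polymers of tubulin that grow and shrink, and both kinds of protein act on that balance. Structural microtubule-associated proteins (MAPs) such as MAP1B, MAP2 and tau bind along the polymer and stabilise it, and doublecortin does so in migrating neurons. Stathmins hold free tubulin dimers and promote shrinkage until kinases phosphorylate them. In the embryonic cortex these genes are widely used as signs of newborn neurons, with Stmn1 also made in progenitors.

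The values were RSEM abundances per length and library, either TPM or FPKM, without read counts, and sequencing depth was therefore unknown. Replicates lay close together (Pearson's r = 0.989 for the eIF4E pair and 0.993 for the Input pair across 12769 genes, which are not independent replicates). The IgG library stood apart: 2651 of the tested genes were listed at 0 in it, against 61 and 84 in the eIF4E libraries and 56 and 62 in the Input libraries. The single IgG library cannot meet the filter alone, while a replicate pair can, which can add to the zeros in IgG. Among all gene IDs, 11825 were above 0 in IgG, 18677 and 18745 in eIF4E and 17529 and 17412 in Input. Each comparison with IgG rests on a single library, assumed to vary like the others. Fold changes are on the scale of log2(value + 1), from limma with Benjamini-Hochberg adjustment over all tested genes.

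Against Input, the mRNAs of 6 of the 9 genes were higher with eIF4E, 1 was lower and 2 did not pass the test (limma adjusted p under 0.05). The same test called 43.3% of all tested genes higher and 30.6% lower, 73.9% in all. Map1b, Map2 and Dcx rose most, by 4.36-fold to 6.80-fold, Stmn1, Dclk1 and Mapt rose by less than 2-fold, and Stmn3 fell to 0.552 of Input. The median log2 fold change of the 9 was 0.70, beside 0.16 for all tested genes. The eIF4E and Input libraries did not overlap for any of the 9, which also held for 87.8% of all tested genes.

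**Figure D1:**
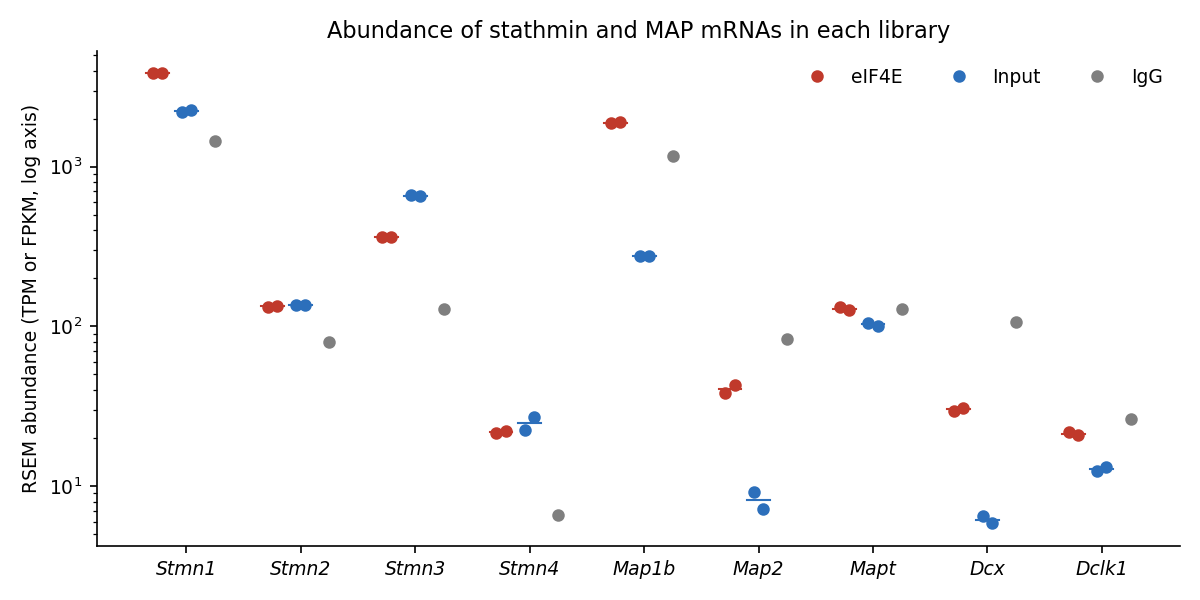
RSEM abundance (TPM or FPKM, log axis) of the 9 mRNAs in the eIF4E (red), Input (blue) and IgG (grey) libraries; each point is 1 library and each line the mean of 2. Map1b, Map2 and Dcx stand higher in both eIF4E libraries than in both Input libraries, Stmn3 stands lower, and the IgG library holds the highest value for Map2, Dcx and Dclk1.

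Annotated starts of 4 of these genes are shown because eIF4E works at the 5′ end of the mRNA, and because they span the response: Map1b, Map2 and Dcx rose most and Stmn3 fell. RefSeq annotates transcripts of all 9 genes, but the set of its GRCm38.p6 promoters used here held 7 promoters for 5 of them. Another Dcx start in that set, 95 bases from the one shown, is left out. The sequences below are from the same set. Each runs 5′ to 3′ on the transcribed strand, with 50 bases before the annotated start in lower case and the first 20 bases from it in capitals. The windows are chr13:99516583-99516652 on the minus strand for Map1b, chr1:66175279-66175348 on the plus strand for Map2, chrX:143933200-143933269 on the minus strand for Dcx and chr2:181314481-181314550 on the minus strand for Stmn3.
Map1b: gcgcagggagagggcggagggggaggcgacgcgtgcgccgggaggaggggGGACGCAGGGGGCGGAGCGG
Map2: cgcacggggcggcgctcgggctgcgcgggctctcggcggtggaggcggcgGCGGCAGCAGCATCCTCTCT
Dcx: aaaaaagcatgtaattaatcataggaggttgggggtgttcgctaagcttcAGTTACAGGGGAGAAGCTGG
Stmn3: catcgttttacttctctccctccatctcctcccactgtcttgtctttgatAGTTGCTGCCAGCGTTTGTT

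The annotated first base was G in Map1b and Map2 and A in Dcx and Stmn3. A pyrimidine start, meaning a C at the annotated start followed by at least 4 bases that are each C or T, is the hallmark of mRNAs with a terminal oligopyrimidine leader. It was found on the transcribed strand at 0 of the 7 promoters and at 2.51% of the 32851 promoters in the RefSeq table. The letters TATAAA, also read on the transcribed strand only, were found in the 50 bases before the start in 0 of the 7 and in 2.63% of all. Among tested genes, the median log2 fold change of eIF4E against Input was 0.08 for the 297 with a pyrimidine start and 0.17 for the 9334 without one. Pyrimidine starts and TATAAA are rare enough over all promoters that absence from 7 was likely in any case. The part of promoter sequence in the folds was not tested. GC content of the 300-base window was 65.7% for Map1b, 77.7% for Map2, 43.0% for Dcx and 49.7% for Stmn3, beside a median of 52.7% over all promoters, so the 3 genes that rose most lay on both sides of it.

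Map1b encodes the MAP that is prominent in growing axons early in development. The gene lies on chromosome 13 from 99421464 to 99516602 (GRCm38). Its mRNA measured 1872.11 and 1898.41 in the eIF4E libraries, 276.32 and 276.36 in the Input libraries and 1163.15 in the IgG library. It was the second most abundant of the 9 in eIF4E and in IgG, and the third in Input, after Stmn1 and Stmn3. The rise over Input was 6.80-fold (log2 2.77, SE 0.03, limma adjusted p = 3.77e-05), above 98.2% of all tested genes. Among all tested genes in a library it ranked 32nd and 30th in eIF4E, against 557th and 562nd in Input.

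Map2, on chromosome 1 from 66175202 to 66442583, encodes the MAP that marks dendrites in mature neurons. Its values were 38.51 and 42.75 in eIF4E, 9.21 and 7.24 in Input and 83.38 in IgG. Both eIF4E libraries lay above both Input libraries and below the IgG library. The rise over Input was 4.53-fold (log2 2.18, SE 0.13, limma adjusted p = 1.94e-04).

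Mapt encodes tau, the MAP enriched in axons, and lies on chromosome 11 from 104229409 to 104332090. Of Map1b, Map2 and Mapt, its mRNA moved least, with 131.89 and 126.39 in eIF4E, 105.42 and 100.20 in Input and 129.44 in IgG. The IgG value lay between the eIF4E values, and both groups lay above Input. The rise over Input was 1.25-fold (log2 0.33, SE 0.05, limma adjusted p = 0.00442), and median-of-ratios scaling took it to log2 0.0042 (adjusted p = 0.946).

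Doublecortin, encoded by Dcx on chromosome X from 143855842 to 143933396, binds microtubules in migrating neurons, and its loss causes lissencephaly in humans. Its mRNA measured 29.55 and 30.92 in eIF4E, 6.48 and 5.86 in Input, where it was the least abundant of the 9, and 106.50 in IgG. All libraries of the 3 groups were apart, with Input lowest and IgG highest. The rise over Input was 4.36-fold (log2 2.12, SE 0.08, limma adjusted p = 7.8e-05).

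Dclk1, on chromosome 3 from 55242303 to 55539068, encodes a kinase that carries doublecortin domains. It measured 21.71 and 20.92 in eIF4E, 12.43 and 13.13 in Input and 26.27 in IgG. Its order of the groups was that of Dcx, with smaller steps. The rise over Input was 1.62-fold (log2 0.70, SE 0.07, limma adjusted p = 9.03e-04). The libraries do not mark strand, and a noncoding gene, Gm9831, overlaps Dclk1; it was listed at 0.05 and 0.08 in eIF4E, at 0 in both Input libraries and at 5.55 in IgG.

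Stmn1, the founding stathmin, is cytosolic and found in dividing cells as well as neurons. It lies on chromosome 4 from 134468320 to 134473843. It was the most abundant of the 9 in every library, at 3843.81 and 3848.26 in eIF4E, 2194.13 and 2266.38 in Input and 1441.75 in IgG. Among all tested genes it ranked 7th in both eIF4E libraries, 38th and 40th in Input and 20th in IgG. The eIF4E values were above Input and IgG. The rise over Input was 1.72-fold (log2 0.79, SE 0.04, limma adjusted p = 1.12e-04), and it was log2 1.56 under quantile normalization, which makes the distributions of all libraries the same.

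Stmn2, Stmn3 and Stmn4 encode the neuronal stathmins, which are held on membranes by a lipid-modified N-terminal stretch. With values as deposited, none of them was called higher in eIF4E than in Input. Stmn3 (chromosome 2, 181306459 to 181314500) measured 362.58 and 364.59 in eIF4E, 665.52 and 654.61 in Input and 128.88 in IgG. Its fall to 0.552 of Input (log2 −0.86, SE 0.04, limma adjusted p = 1.08e-04) placed it above 10.7% of all tested genes. Stmn3 was thus the only gene of the 9 called lower than Input, although median-of-ratios scaling and quantile normalization called more.

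Stmn2 (chromosome 3, 8509527 to 8561604), whose product works in growth cones, measured 132.56 and 135.01 in eIF4E, 135.32 and 136.00 in Input and 79.91 in IgG. Its ratio to Input was 0.986 (log2 −0.02, SE 0.04, limma adjusted p = 0.695), and its direction changed with the scaling: median-of-ratios scaling made it a called decrease (log2 −0.34, limma adjusted p = 0.00255) and the same total in every library a called increase (log2 0.22, adjusted p = 0.0125). Stmn4 (chromosome 14, 66344210 to 66361680) measured 21.44 and 21.98 in eIF4E, 22.53 and 26.94 in Input and 6.60 in IgG. Its ratio to Input was 0.886 (log2 −0.18, SE 0.10, limma adjusted p = 0.188), while it passed as lower at log2 −0.49 (adjusted p = 0.0115) after median-of-ratios scaling and at log2 −0.40 (adjusted p = 0.0199) after quantile normalization, and had the other sign with the same total (log2 0.056, adjusted p = 0.644). For both genes the eIF4E libraries lay just under the Input libraries, by a difference that did not pass the test.

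**Figure D2:**
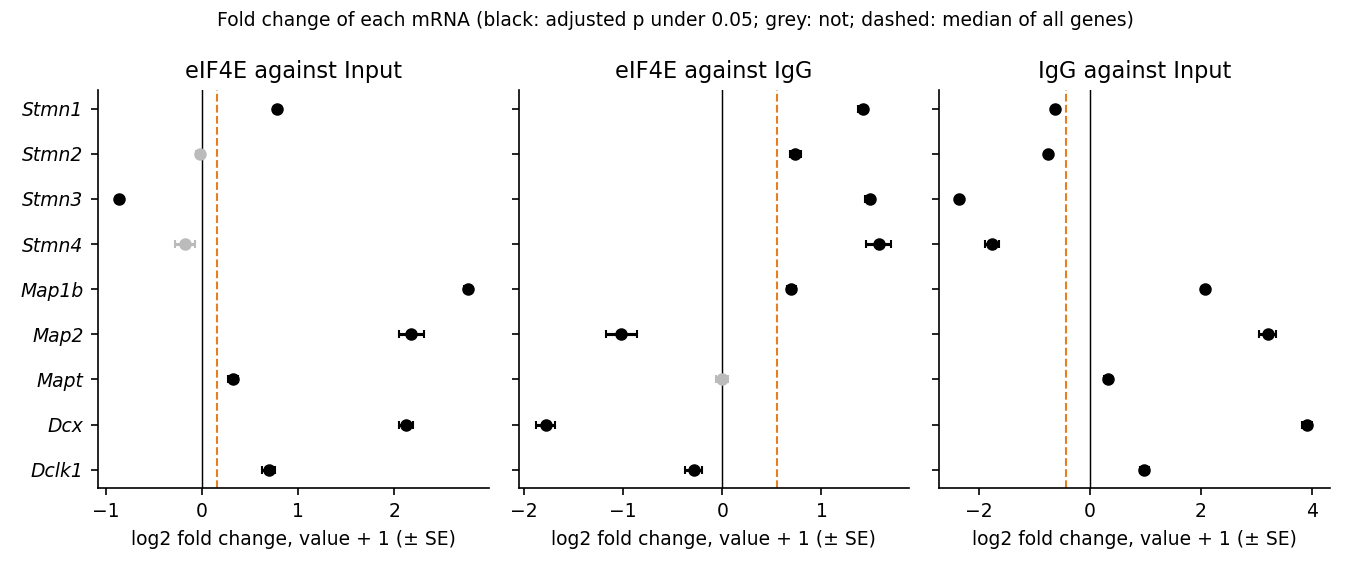
Log2 fold change (value + 1, with limma SE) of each mRNA in 3 panels, namely eIF4E over Input, eIF4E over IgG, and IgG over Input; black points passed adjusted p under 0.05, grey did not, and the dashed line is the median of all tested genes (0.16, 0.55 and −0.43). The 4 stathmins are above 0 against IgG, whereas Map2, Dcx and Dclk1 are below 0 there and above 0 against Input; quantile normalization turned Map1b against IgG and Stmn1 in IgG against Input.

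The zero point of these folds depends on how libraries are scaled. The median of all tested genes in eIF4E against Input was log2 0.16 as deposited, −0.11 after median-of-ratios scaling or quantile normalization, and 0.36 with the same total in every library. Relative to that median, the structural and doublecortin genes kept one side under these 4 scalings. Map1b lay 2.56 to 3.23 above it, Map2 1.99 to 2.04 and Dcx 1.88 to 1.97. Dclk1 lay 0.48 to 0.56 above, and Stmn1 0.58 to 1.68 above. Mapt lay 0.12 to 0.52 above it. Of the stathmins besides Stmn1, Stmn3 lay 0.39 to 1.07 below the median and Stmn4 0.29 to 0.37 below. Stmn2 lay 0.14 to 0.23 below in 3 of the scalings and 0.22 above under quantile normalization.

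Ratios between 2 of these mRNAs within a library do not depend on a common scaling factor. They are given as values, since 2 libraries against 2 cannot reach an exact two-sided permutation p under 0.333. The ratio of Stmn1 to Stmn3 was 10.6 in both eIF4E libraries, 3.30 and 3.46 in the Input libraries and 11.2 in IgG, a change of 3.13-fold between eIF4E and Input. The precipitates of both kinds held about the same proportion of these stathmins, which differed from that in Input. The ratio of Stmn1 to Stmn2 was 29.0 and 28.5 in eIF4E, against 16.2 and 16.7 in Input, with 18.0 in IgG. Here the IgG library lay near Input.

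Among the MAPs, the ratio of Map1b to Mapt was 14.2 and 15.0 in eIF4E, 2.62 and 2.76 in Input and 8.99 in IgG, a change of 5.43-fold between eIF4E and Input. The ratio of Map2 to Mapt was 0.292 and 0.338 in eIF4E, 0.0874 and 0.0723 in Input and 0.644 in IgG. Within the doublecortin family, Dcx was more abundant than Dclk1 in eIF4E (ratios of 1.36 and 1.48) and in IgG (4.05), and less abundant in Input (0.521 and 0.446). For each of these 3 pairs the eIF4E libraries lay apart from the Input libraries, and IgG lay above Input.

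**Figure D3:**
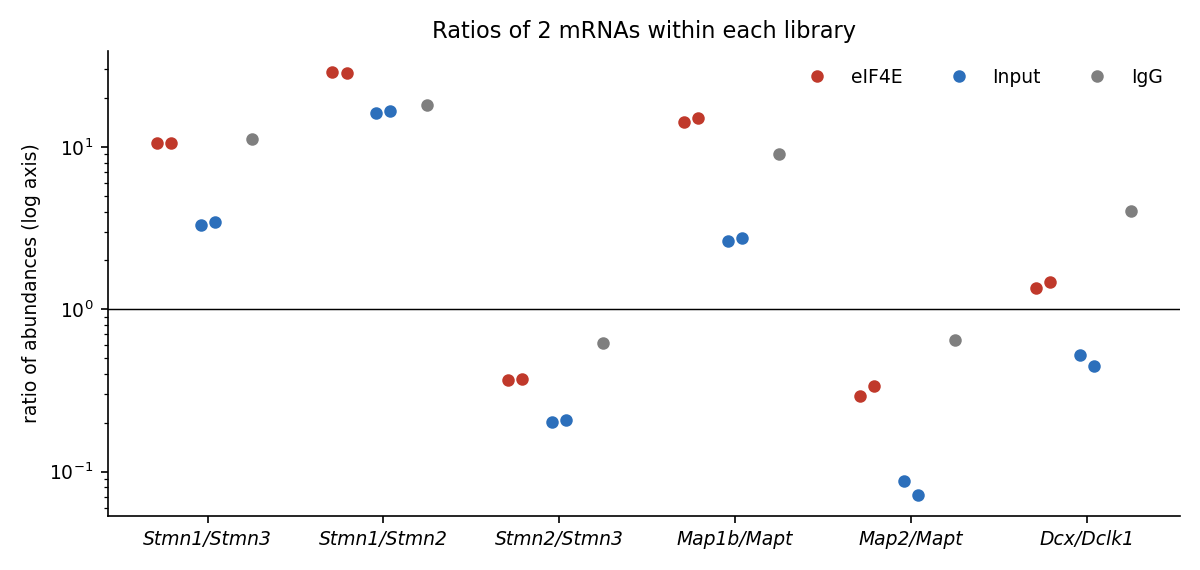
Ratio of the abundances of 2 mRNAs within each library (log axis) in eIF4E (red), Input (blue) and IgG (grey); each point is 1 library and the line marks a ratio of 1. The ratios of Stmn1 to Stmn3, Map1b to Mapt, Map2 to Mapt and Dcx to Dclk1 differ between eIF4E and Input by more than the gap between replicates, and Dcx to Dclk1 crosses 1.

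The makeup of the group differed between the fractions. Together the 9 mRNAs made up 0.898% and 0.916% of the summed abundance in eIF4E, 0.409% and 0.411% in Input and 0.565% in IgG. Of that sum, Map1b held 29.0% and 29.3% in eIF4E, 8.06% and 7.93% in Input and 36.7% in IgG. Stmn3 held 5.62% in both eIF4E libraries, 19.4% and 18.8% in Input and 4.07% in IgG, so Map1b and Stmn3 changed places between eIF4E and Input. Stmn1 held 59.6% and 59.3% in eIF4E, 64.0% and 65.0% in Input and 45.5% in IgG. In the order of levels, Stmn4 and Dclk1 overlapped in eIF4E, and no other neighbours in that order overlapped in eIF4E or Input.

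The comparison of eIF4E with IgG asks whether an mRNA took a larger share of the RNA brought down by the eIF4E antibody than of that brought down by IgG. How much RNA each antibody brought down is not known. Of the 9 genes, 5 were higher and 3 lower in eIF4E, and 1 did not pass, where 53.1% of all tested genes were called higher and 30.6% lower, 83.8% in all. All 4 stathmins were higher, Stmn4 by 2.99-fold, Stmn3 by 2.81-fold, Stmn1 by 2.67-fold and Stmn2 by 1.67-fold (limma adjusted p = 3.04e-04 or less). Map1b was 1.62-fold higher (adjusted p = 1.27e-04), but quantile normalization took it to log2 −0.10. The median over all tested genes was log2 0.55, and Map1b and Stmn2 lay close to it at 0.70 and 0.74.

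Dcx and Map2, which rose over Input, had the opposite sign against IgG: Dcx stood at 0.290 of IgG (log2 −1.78, SE 0.09, limma adjusted p = 8.39e-05) and Map2 at 0.493 (log2 −1.02, SE 0.16, adjusted p = 0.00277). Dclk1 stood at 0.818 (adjusted p = 0.0279). Its log2 fold change of −0.29 stayed between −0.32 and −0.26 when 1 replicate was left out, but the call was lost when any 1 of the replicated libraries was left out: without eIF4E replicate 1 the adjusted p was 0.0545, without eIF4E replicate 2 it was 0.0804, without Input replicate 1 it was 0.0519 and without Input replicate 2 it was 0.0521. Mapt did not pass (ratio 0.997, limma adjusted p = 0.962), though it was called lower under quantile normalization (log2 −0.47) and with the same total in every library (log2 −0.35).

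IgG against Input shares its libraries with both comparisons above and is given beside them as values. In that comparison 5 of the 9 were higher and 4 lower, against 37.8% higher and 50.3% lower, 88.1% in all, among all tested genes. The 5 MAPs and doublecortins were higher, with Dcx at 15.0-fold, Map2 at 9.20-fold, Map1b at 4.20-fold, Dclk1 at 1.98-fold and Mapt at 1.26-fold (limma adjusted p = 0.00629 or less), though Mapt did not pass after median-of-ratios scaling (adjusted p = 0.472). The 4 stathmins were lower, with Stmn3 at 0.196 and Stmn4 at 0.296 of Input, Stmn2 at 0.592 and Stmn1 at 0.647, the last of which turned to log2 0.72 under quantile normalization and did not pass with the same total in every library (adjusted p = 0.461). Map1b and Stmn1 were the genes of the 9 that were called higher in eIF4E than in both Input and IgG. Map1b was not among them under quantile normalization, and Stmn2 joined them with the same total in every library (log2 0.22 against Input and 0.39 against IgG, limma adjusted p = 0.0125 and 0.00243). Singly, 43.3% of all tested genes were called higher than Input and 53.1% higher than IgG. The share called higher in both was not counted, so these joint calls have no background beside them.

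The 9 genes differ widely in genomic span, and over all genes the folds differed with span. The 12399 tested genes with a RefSeq span were put into 4 bins of nearly equal size. The median log2 fold change of eIF4E against Input was −0.35 in the bin of shortest spans (up to 8.7 kb), −0.03 and 0.35 in the middle bins and 0.74 in the bin of longest spans (above 53.3 kb). Stmn1 (5.5 kb) and Stmn3 (8.0 kb) belonged to the shortest bin, Stmn4 (17.5 kb) to the second and Stmn2 (52.1 kb) to the third. Map1b (95.1 kb), Map2 (267.4 kb), Mapt (102.7 kb), Dcx (77.6 kb) and Dclk1 (296.8 kb) belonged to the longest. Map1b, Map2 and Dcx thus lay above the median of their own bin, Dclk1 lay near it and Mapt below it. Stmn1, at log2 0.79, lay above the median of the shortest bin and Stmn3, at −0.86, below. Against IgG the medians of eIF4E ran the other way, at 1.02, 0.82, 0.32 and −0.27. The stathmins lay in the 3 shorter bins, and Dcx, Map2 and Dclk1, the genes lower than IgG, in the longest. Also in the longest bin were Map1b, called higher than IgG at log2 0.70, and Mapt, which did not pass at log2 −0.0036. In the IgG library against Input the same bins had medians of −1.35, −0.76, 0.08 and 1.04. The part of gene span in the values of single genes was not tested.

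Markers of cell types were read beside these values. Of 16 markers of newborn neurons, 13 were higher in eIF4E than in Input and 2 lower, beside 43.3% and 30.6% of all tested genes. Against IgG 6 of the 16 were higher in eIF4E and 8 lower, and in IgG against Input 11 were higher and 3 lower. They had a summed abundance of 2820.23 and 2819.91 in eIF4E, 2043.53 and 2061.88 in Input and 2347.42 in IgG; Nefl was at 0 in IgG and no other of them was at 0 in any library. Of 12 radial glia and progenitor markers, 6 were higher and 4 lower, with sums of 2246.69 to 2596.09 in eIF4E, 2074.24 to 2151.28 in Input and 1515.58 in IgG, and with none at 0. Of 9 erythroid markers 8 were tested and all 8 were lower, with sums of 4843.42 to 6446.42 in eIF4E, 17163.2 to 18695.38 in Input and 2521.06 in IgG. Of 7 intermediate progenitor markers 5 were higher and 1 lower, and of 7 interneuron markers 4 were higher and 3 lower, with Gad1 and Lhx6 at 0 in IgG; the interneuron markers summed to 58.28 to 61.51 in eIF4E, 59.77 to 62.35 in Input and 181.92 in IgG. Endothelial (1 of 8 higher, 4 lower), microglial (0 of 6 higher, 4 lower) and meningeal markers (2 of 5 higher, 3 lower) summed to at most 138.36 in any eIF4E or Input library. In IgG the endothelial markers summed to 20.64, the microglial ones to 21.97 and the meningeal ones to 271.3, with 3, 5 and 3 of them at 0. Neuronal and cortical progenitor markers were thus present in all 5 libraries, as the tissue label has it. The part of these markers in the values of the 9 genes was not tested.

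Tubulins include the proteins on which stathmins and MAPs act, and the list read here also holds gamma-tubulin (Tubg1). Their mRNAs went the other way from most of the 9. Of 12 tubulin mRNAs, 11 were lower in eIF4E than in Input, none was higher (1 under quantile normalization), and the remaining one, Tubb2a, did not pass (limma adjusted p = 0.0505). Their median log2 fold change was −0.63, with Tubb4a at 0.501 and Tuba1c at 0.560 of Input. Per 100 units of summed tubulin abundance, the 4 stathmins summed to 23.6 and 23.2 in eIF4E, 11.6 and 12.1 in Input and 22.5 in IgG. The 5 MAPs and doublecortins summed to 11.3 in both eIF4E libraries, 1.58 in both Input libraries and 20.4 in IgG, so relative to tubulin they were lowest in Input and highest in IgG. Against IgG, 11 of the 12 tubulins were higher in eIF4E and 1 lower. Among all tested genes, 30.6% were lower than Input, and against IgG 53.1% were higher and 30.6% lower.

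**Figure D4:**
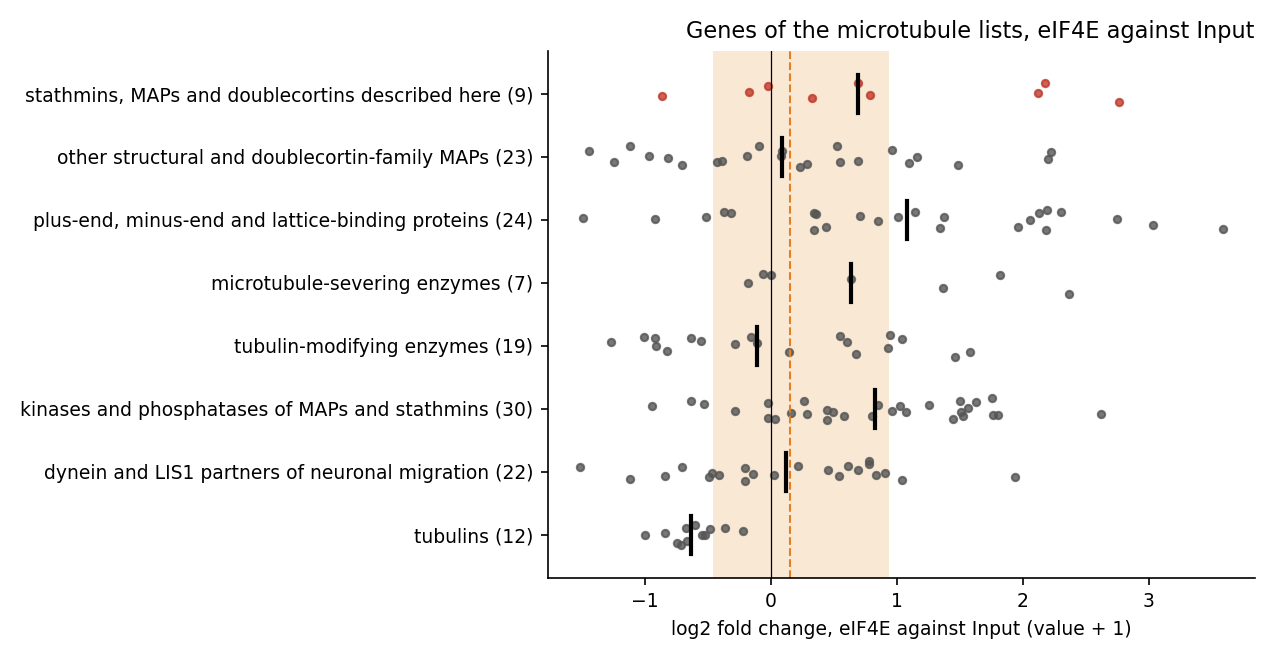
Log2 fold change of eIF4E against Input (value + 1) for the 9 genes (red) and for the tested genes of 7 microtubule lists (grey, number in parentheses); black bars are medians, the dashed line is the median of all tested genes and the shaded band runs between their quartiles, from −0.45 to 0.94. Tubulins lie below 0 (1 was higher under quantile normalization), plus-end and lattice-binding proteins have a median of 1.08, and the 9 genes spread from −0.86 to 2.77.

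The genes named from the lists that follow all passed limma adjusted p under 0.05 for eIF4E against Input, and their libraries did not overlap. The counts of each list stand beside those of all tested genes. Of these, 43.3% were higher and 30.6% lower than Input, and 53.1% were higher and 30.6% lower than IgG. The list of other structural and doublecortin-family MAPs had 9 of 23 tested genes higher in eIF4E than in Input and 9 lower. Its median was log2 0.09, and 13 genes were higher and 7 lower than IgG. This list also holds genes outside those families, namely Map1lc3a, Map1lc3b, Jpt1, Crmp1 and Dpysl genes. Of these, Map1lc3a, Jpt1, Crmp1, Dpysl4 and Dpysl5 were among the lower genes, Dpysl2 and Dpysl3 among the higher, and Map1lc3b did not pass. Eml4, which binds along microtubules, was 4.68-fold higher and Map9, a MAP of the spindle, 4.60-fold higher, but against IgG Eml4 did not pass (ratio 1.04) and Map9 stood at 0.442. Map1s, a relative of Map1b, stood at 0.369 of Input and Map1lc3a, which encodes a light chain used in autophagy, at 0.423. Proteins of microtubule ends and lattice had 17 of 24 higher and 5 lower than Input, with a median of log2 1.08. Against IgG this list was the other way round, with 7 higher, 15 lower and a median of log2 −0.83. The kinesin Kif18a, which limits microtubule growth in mitosis, was higher by log2 3.59 and Apc, which binds plus ends, was 8.20-fold higher, and both were lower in eIF4E than in IgG (0.340 and 0.302). Camsap3, which binds minus ends, stood at 0.355 of Input and 0.0835 of IgG, whereas Clip3 stood at 0.531 of Input and was 1.35-fold over IgG.

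Kinases and phosphatases that act on MAPs and stathmins had 20 of 30 genes higher and 3 lower than Input, beside 43.3% and 30.6% of all tested genes, with a median of log2 0.83. Against IgG 12 were higher and 14 lower, with a median of log2 −0.19. The count higher than Input was 15 after median-of-ratios scaling or quantile normalization, and also 15 without the filter. It also fell in every fit that left out 1 replicate. Pak3 was 6.17-fold over Input but stood at 0.544 of IgG, and the tyrosine kinase Fyn was 3.49-fold over Input and 9.59-fold over IgG. Prkaca, a catalytic subunit of protein kinase A, stood at 0.521 of Input and Ppp2r1a, a scaffold of phosphatase 2A, at 0.647, and both were higher than IgG (1.92-fold and 1.33-fold). The list built around dynein and LIS1, which move nuclei in migrating neurons, had 11 of 22 genes higher and 4 lower than Input. Its median was log2 0.12, and 13 genes were higher and 5 lower than IgG. Ywhae, Ywhab and Ywhag, which are not dynein subunits, are also in it and were called higher than Input. Pafah1b1, which encodes LIS1, was 3.83-fold over Input and did not pass against IgG (ratio 0.850), its partner Nde1 was 2.05-fold over Input and 2.17-fold over IgG, while the dynactin genes Dctn1 and Dctn3 stood at 0.461 and 0.559 of Input. The count of genes lower than Input in this list was 9 without eIF4E replicate 1.

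Microtubule-severing enzymes had 4 of 7 genes higher and 1 lower, in eIF4E against Input as in eIF4E against IgG. Spast, encoding spastin, was 5.16-fold over Input but stood at 0.503 of IgG, and the katanin subunit Katna1 was 3.53-fold over Input and 3.36-fold over IgG. The count of genes lower than Input in this list was 0 without eIF4E replicate 1, without Input replicate 1 and without Input replicate 2. Tubulin-modifying enzymes and tubulin-folding cofactors had 8 of 19 higher and 8 lower than Input, and 8 higher and 9 lower than IgG. The cofactor Tbce was 2.99-fold over Input but stood at 0.335 of IgG, and Agtpbp1, which removes glutamates from tubulin, was 2.76-fold over Input and did not pass against IgG (ratio 0.718). By contrast the cofactors Tbcd and Tbcc stood at 0.415 and 0.498 of Input. The count of genes higher than Input was 5 without eIF4E replicate 1, and likewise without Input replicate 1 or Input replicate 2.

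The pattern over all 5 libraries was also used to look for genes most like the group. Each gene's log2(value + 1) was centred on its own mean, and distance was measured to the median profile of the 9. Ssrp1, Ywhaz, Tbc1d9, Arl2bp and Ddah1 lay nearest, at Euclidean distances of 0.0918 to 0.116 over 5 libraries. Tbc1d9 was near the floor, at 1.18 and 1.23 in eIF4E and 0.55 and 0.62 in Input. At such levels the pseudocount of 1 shrinks the profile. Of the 9 genes themselves Mapt lay at 0.192, Dclk1 at 0.528 and the others between 0.923 (Stmn2) and 2.95 (Dcx), so the median profile described few of the genes it was made from.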

How the data were processed

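Smart-seq2 libraries were made from precipitated and Input RNA, per the labels' protocols; they are primed on poly(A) tails and mark neither strand nor molecules. The deposited table holds a signal per gene and library, RSEM abundances that are never negative; the header does not say whether they are TPM or FPKM. STAR 2.7.9a, RSEM 1.3.3 and mm10 are named in the submitters' processing notes; which annotation was used is not given in these sources. Column totals were 708778 to 718857 (eIF4E), 838759 to 848550 (Input) and 560076 (IgG).

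Of 50161 rows, 286 repeats were dropped. Genes that reached 1 in 2 or more libraries (12769) were fitted as log2(value + 1) with limma 3.58.1 in R 4.3.3, as 3 groups over 5 libraries (two-sided, variance trend in eBayes, Benjamini-Hochberg adjustment, threshold 0.05), with 2 residual degrees of freedom and a median of 2.571 prior ones. The fit was tested on simulated data in which few genes changed, unlike these data, so that test does not vouch for the calls given here. A pseudocount of 1 understates folds of low genes. The 9 genes and the lists were chosen with earlier results of these data known; the within-library ratio pairs, the span bins and the promoter features were chosen after values were seen. All 9 were named, as were the 2 highest and 2 lowest called genes of each pathway list that did not overlap between eIF4E and Input, and the 5 genes nearest in profile; not every item so chosen is reported here. Alternatives covered scaling, pseudocount, filter, variance trend, libraries in the fit, the replicate block and each left-out replicate.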

Additional observations from a re-analysis of the deposited data

How the results depend on the processing

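In eIF4E against Input, 6 of the 9 genes were higher under every alternative run except median-of-ratios scaling (5) and the same total in every library (7), and 1 was lower under every alternative except median-of-ratios scaling (3) and quantile normalization (2). Among single genes, Stmn2 against Input turned to log2 0.11 under quantile normalization and 0.22 (limma adjusted p = 0.0125) at the same total, and Stmn4 to 0.056 at the same total. Against IgG, Map1b turned to −0.10 under quantile normalization, where 4 genes were higher and 4, with Mapt, lower, and Mapt ranged from −0.034 to 0.027 when 1 replicate was left out. The call of Dclk1 against IgG was lost whenever 1 replicate was left out, at log2 −0.32 to −0.26, so that 2 genes were lower. Stmn1 in IgG against Input turned to 0.72 under quantile normalization (6 genes higher and 3 lower). The cause of these changes was not tested.

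Of all genes called in eIF4E against Input, 58.6% were higher as deposited, 45.7% after median-of-ratios scaling, 45.5% under quantile normalization and 70.3% at the same total. Against IgG the share was 63.4%, against 48.8% under quantile normalization and 52.8% among genes above 0 in all libraries (4326 higher in place of 6785); in IgG against Input it was 42.9%, against 54.3% among those genes (4034 lower in place of 6428). Leaving out 1 replicate moved list counts to between 5 and 7 (tubulin-modifying, higher), 0 and 1 (severing, lower) and 3 and 9 (dynein, lower). Tubulin-modifying genes higher numbered 5 under median-of-ratios scaling and quantile normalization, tubulins higher 1 under quantile normalization, end-binding genes lower 3 at the same total, and kinases lower 5 under quantile normalization. Severing genes lower numbered 2 under median-of-ratios scaling and quantile normalization, and 0 at the same total, without the variance trend and with the replicate block. Dynein genes lower numbered 9 after median-of-ratios scaling and 8 under quantile normalization.

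The replicate numbers of eIF4E and Input are shared as numbers only: the replicate differences of both groups correlated at r = 0.024 across genes. With the replicate block, 6 of the 9 genes were higher and 1 lower, and 5401 of all genes were higher and 3749 lower. With depth unknown, no counting error can be given.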
